A study of Mus musculus with 2 samples.

Results

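The genes described here are 36 interferon-induced genes of the mouse, read on 2 two-colour arrays of cultured embryonic ureters. They were chosen by name: every probe that is not a control spot and carries the name of 1 of these genes was taken, which gave 50 of 39429 probes. All 36 genes had at least 1 probe that was measured on both arrays (44 of the 50 probes), out of 22311 genes or unnamed features. The names were put together with the ratios of both arrays in view, because these genes differed between the arrays. Their ratios and their difference between arrays are therefore a description, and no test was run on them as a set.

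The ureters came from wild-type NMRI mouse embryos of both sexes at E13.75, dissected and grown on transwell membranes for 18 h. The treated ureters had 10 µg/ml NOGGIN in their medium and the control ureters had none. NOGGIN is an extracellular antagonist of bone morphogenetic proteins (BMPs), which it traps before they reach a receptor. From every sample 200 ng of total RNA was labelled. Each array held 1 control and 1 NOGGIN sample, so there were 2 samples of each. On array 1 control 1 was in the red dye (AlexaFluor647) and NOGGIN 1 in the green dye (AlexaFluor555), and on array 2 NOGGIN 2 was red and control 2 green. The labels number the samples without saying whether the pairs came from separate litters, so the spread between them may be technical.

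Type I interferons, such as IFN-beta, are secreted by cells that sense foreign nucleic acid. They signal through the receptor IFNAR and the kinases JAK1 and TYK2 to a complex that holds STAT2 and IRF9 and binds a DNA element called ISRE. Interferon-gamma signals through a receptor of its own, and many of its targets carry an element called GAS. The induced genes code for sensors, transcription factors that amplify the response, antiviral proteins, GTPases that attack intracellular parasites, and proteins that load peptides on MHC class I.

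The direction of all signed values is unsettled and follows the dye labels: each ratio sets the NOGGIN channel, as the labels name it, over the control channel. The authors' deposited table, set against the scanner values on a log scale, had a correlation of 0.891 with the red over green ratio for array 1 and of -0.943 for array 2. By the dye labels that table is control over NOGGIN, while its titles put NOGGIN first. For Ifit1 the authors' deposited table gives signed fold changes of -1.82 and -45.90, and for the BMP target Id1 -4.65 and -4.53. Should the dyes have been the other way round, all signs below turn, and the sample called NOGGIN 2 is then a control sample. The sizes and the contrast between the arrays stay. By the dye labels the BMP target genes were higher in the NOGGIN channel of both arrays, which is the opposite of what a BMP antagonist is known to do to them. Which direction is right is not settled by the sources, so NOGGIN and control are names of channels here.

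The 2 arrays shared 1 slide and 1 scan, with 0 saturated spots and 3.36% and 3.09% of spots set aside as outliers. Green gave more probes well above background (76.9% and 76.4%) than red (65.3% and 66.4%). Across 22311 genes the ratios of the arrays correlated at 0.179 (Pearson) and -0.069 (Spearman), and genes are not independent replicates. The tissue carried its own markers: all 8 urothelial genes and all 6 genes of the ureteric mesenchyme and smooth muscle were measured in every channel. Of 10 BMP target genes, 9 passed 1.5-fold upwards on each array, with medians of 1.49 and 1.40 (log2). In the gene test across both arrays (limma, 1 residual degree of freedom) the adjusted p of 0.05 was met by 0 of 22311 genes, and 1348 had an unadjusted p under 0.05. Of the 36 genes, 16 were among these 1348, all of them higher, which the choice of the genes fixed in part. The number of arrays limits the precision of every value.

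The 36 genes were highest in the same 1 of the 4 RNA samples, though some were also raised in another sample. NOGGIN 2 had the highest level of all 4 samples for each of the 36 genes, and for 34 it was at least 1.5-fold above every other sample (1.69% of all genes). On array 2, 34 of the 36 genes were at least 1.5-fold higher in the channel labelled NOGGIN, against 6.15% of all genes tested, and 0 were 1.5-fold lower (5.64% of all genes). All 34 were also at least 2-fold higher (2.03% of all genes), 26 at least 4-fold and 14 at least 8-fold. By array 2 ratio over all genes, the lowest of the 26, Gbp2, ranked 89. The lowest of the 14, Irf7, ranked 25. On array 1, 6 of 36 were at least 1.5-fold higher (2.2% of all genes), 1 was lower (2.11%), and 29 lay within 1.5-fold. The 6 genes higher on array 1 were the same that were higher on both arrays (0.941% of all genes), and 0 were lower on both (1.25%). These shares were fixed in part by the choice of the genes.

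The median log2 ratio of the 36 genes was 0.11 on array 1 and 2.71 on array 2, where all genes had 0.02 and -0.05. The array 2 ratio was above the array 1 ratio for 36 of 36 genes (41.1% of all genes), and by at least 1 on the log2 scale for 32 (2.65%). It was also above for 7 of 8 housekeeping genes, with a median excess of 0.38 against 2.43 for the 36 genes. Stat2 (0.31) and Irf1 (0.60) had an excess of the size seen in housekeeping genes such as Ppia (0.51). NOGGIN was green on array 1 and red on array 2, so a fixed dye difference of a gene also enters this excess. The excess alone cannot separate it from a difference between the sample pairs, and comparisons within each dye are given below. The median SD between the spots of a probe, which is technical spread within an array, was 0.159 on array 1 and 0.207 on array 2. Over the 2 arrays the SD exceeded the mean for 28 of the 36 genes, with SDs from 0.22 to 3.19 (log2, n = 2). How many of all genes did so was not counted. The order of the genes was only loosely shared: over the 36 genes, which share both arrays, the ratios correlated at 0.318 (Pearson) and 0.438 (Spearman).

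**Figure D1:**
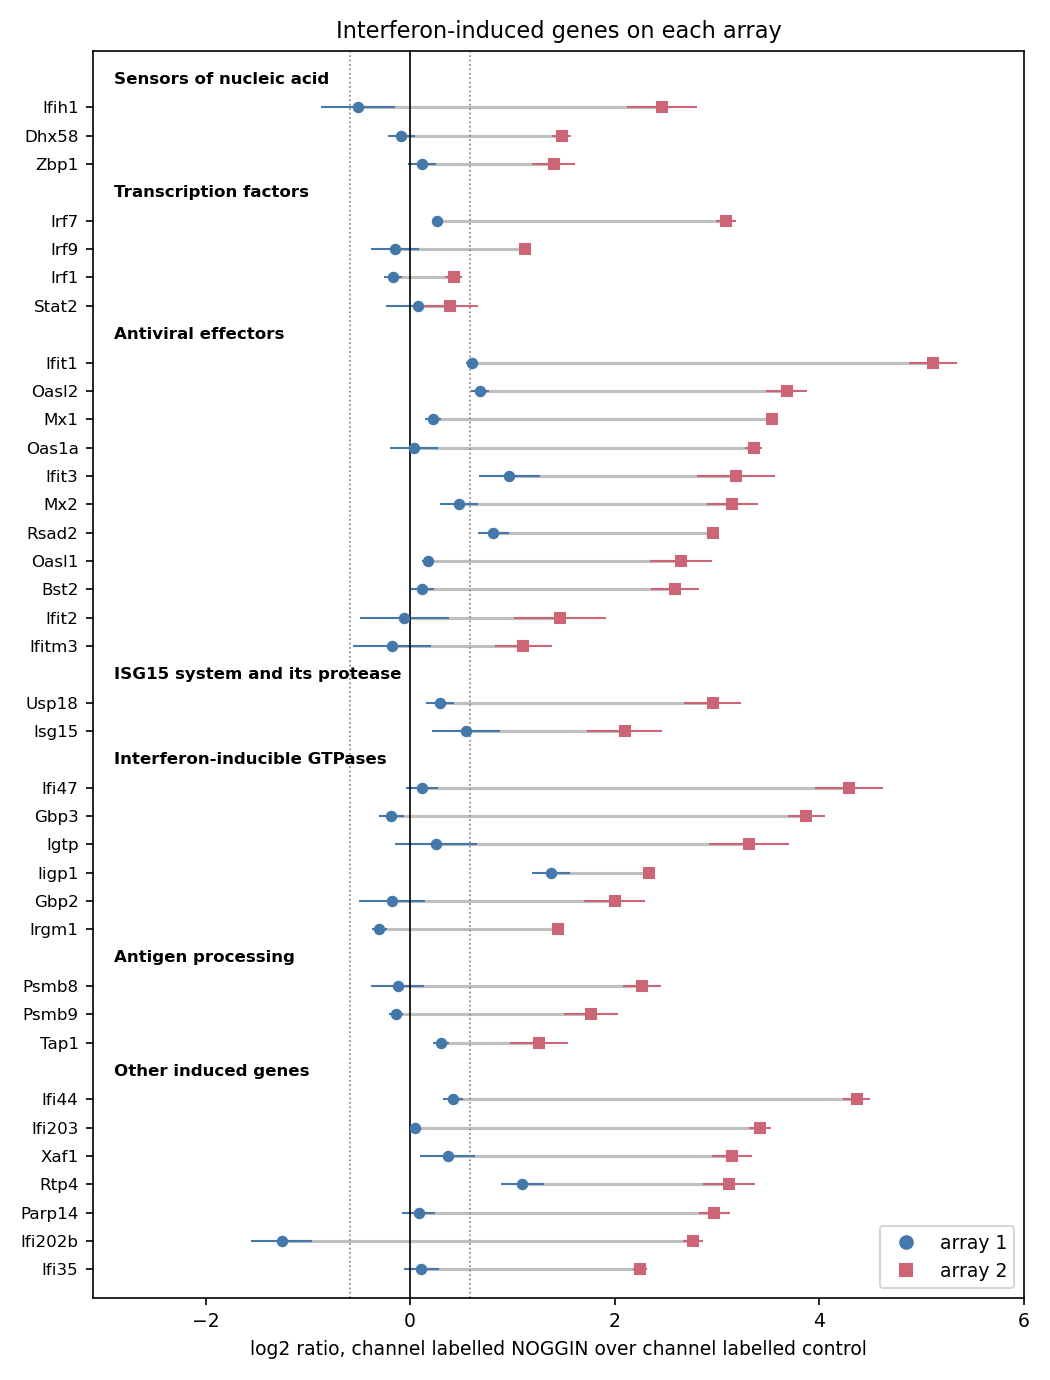
Log2 ratio, NOGGIN over control by the dye labels, of each of the 36 genes (rows, grouped by role) on array 1 (blue circles) and array 2 (red squares). Bars are the SD between the spots of the probe, dotted lines mark 1.5-fold, and 34 of the 36 squares lie to the right of the upper one, against 6 of the circles.

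**Figure D2:**
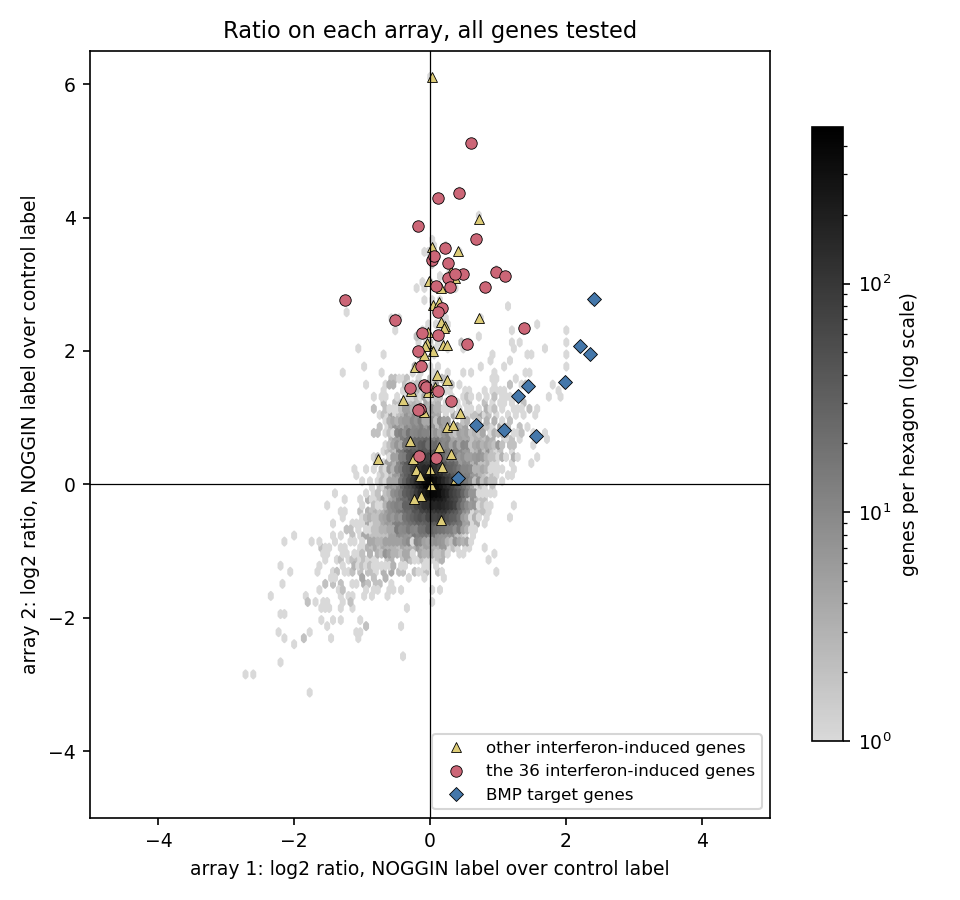
Log2 ratio on array 1 (horizontal) against array 2 (vertical) for all 22311 genes (grey hexagons, darker with more genes on a log scale), the 36 genes (circles), 46 other interferon-induced genes (triangles) and 10 BMP target genes (diamonds). The circles rise along the vertical axis, with medians of 0.11 and 2.71, and the BMP targets lie high on both axes.

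Promoter sequence was set beside the ratios, since the genes moved together on array 2. Of the 36 genes, 28 had an entry in the RefSeq promoter set of build GRCm38.p6, with 33 start sites, some of them of 1 gene. The window searched was the 250 bases before each start. The letters of an ISRE were taken as GAAA, any 2 bases and GAAA again, on either strand (TTTC, any 2 bases and TTTC on the other). They stood in 12 of the 33 windows (36.4%) and in 2.98% of all 32851 windows. The letters of a GAS, TTCNNNGAA, which reads the same on both strands, stood in 7 (21.2%) and in 7.02% of all windows. Windows with both numbered 3, and in 1 of these, that of Bst2, the matches overlapped. The windows of the neighbours Tap1 and Psmb9 overlap and count as 2, and neither holds the ISRE letters. A match is a description of letters and no shown binding site. The genes were picked as interferon-induced, so these shares follow in part from the choice of names and are no result of these arrays.

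The stretches below are examples from the 12 windows with the ISRE letters, picked with the ratios known from the effectors, Isg15 and the GTPases, with those letters in capitals. They are printed 5′ to 3′ on the strand of the gene, and positions are those of GRCm38.p6. Ifit1 (chr19:34640769-34640848, plus strand, array 2 log2 ratio 5.11), Gbp3 (chr3:142559970-142560043, plus strand, 3.87) and Oas1a (chr5:120907526-120907574, minus strand, 3.36) had 2 matches each.
Ifit1: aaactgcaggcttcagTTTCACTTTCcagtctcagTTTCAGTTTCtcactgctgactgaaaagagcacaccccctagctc
Gbp3: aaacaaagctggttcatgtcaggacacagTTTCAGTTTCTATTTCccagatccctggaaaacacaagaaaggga
Oas1a: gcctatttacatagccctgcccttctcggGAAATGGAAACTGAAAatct
The matches of Gbp3 and of Oas1a run into each other, and those of Ifit1 stand apart.

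Ifit3 (chr19:34583372-34583451, plus strand, 3.18) had 2 matches, Isg15 (chr4:156200840-156200919, minus strand, 2.10) had 3, which was the most, and Rsad2 (chr12:26456528-26456607, minus strand, 2.96) had 1.
Ifit3: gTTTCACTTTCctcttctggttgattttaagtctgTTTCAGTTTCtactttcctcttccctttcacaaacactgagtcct
Isg15: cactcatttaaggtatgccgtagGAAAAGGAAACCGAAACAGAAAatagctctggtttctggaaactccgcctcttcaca
Rsad2: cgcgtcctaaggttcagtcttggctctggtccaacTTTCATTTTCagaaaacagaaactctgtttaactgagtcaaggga
Of the GTPase genes, Igtp (chr11:58199487-58199555, plus strand, 3.31) had 1 ISRE match and a GAS match just before it.
Igtp: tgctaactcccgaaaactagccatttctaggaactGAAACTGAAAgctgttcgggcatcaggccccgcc

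The 2 genes with the smallest array 2 ratios are shown beside them. Stat2 (chr10:128270248-128270320, plus strand, 0.39) holds the ISRE letters at the far end of its window, and Irf1 (chr11:53769889-53769967, plus strand, 0.43) holds the GAS letters, here in capitals.
Stat2: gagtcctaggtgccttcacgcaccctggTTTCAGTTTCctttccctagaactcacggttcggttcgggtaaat
Irf1: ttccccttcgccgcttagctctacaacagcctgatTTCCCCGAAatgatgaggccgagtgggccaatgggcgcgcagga
The 12 genes with the ISRE letters had a median array 2 ratio of 3.07 (0.39 to 5.11) and the 16 without them 2.36 (0.43 to 4.37), so the ranges overlapped. Ifi44 and Ifi47, with the highest ratios of the 36 after Ifit1, were among the 16.

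The 3 sensors of nucleic acid were at least 1.5-fold higher on array 2 and not on array 1. Ifih1 (MDA5), which binds long double-stranded RNA, had normalised intensities of 855 in control 1, 600 in NOGGIN 1, 1053 in control 2 and 5808 in NOGGIN 2. Its log2 ratio was -0.51 on array 1 and 2.46 on array 2, so NOGGIN 1 was the lowest of the 4 samples and NOGGIN 2 the highest. Dhx58 (LGP2), a regulator of the RNA sensors, had 107, 101, 107 and 299 in the same order of samples, with ratios of -0.09 and 1.48. Zbp1, a sensor of Z-form nucleic acid, had 117, 126, 149 and 395, with ratios of 0.11 and 1.41. Dhx58 and Zbp1 were not well above background in control 1. Intensities include the offset of 50 that the background correction adds, so folds of dim probes are understated.

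The transcription factors of the response were spread from little change to more than 8-fold. Irf7, the factor that amplifies type I interferon production, had 106 in control 1, 127 in NOGGIN 1, 164 in control 2 and 1391 in NOGGIN 2, with ratios of 0.27 and 3.09. It was not well above background in control 1, and against the bound used for control 1 the fold of NOGGIN 1 was 1.18. Over the settings tried the array 1 ratio of Irf7 ran from 0.14 to 0.93 (log2), so 1.18 is no firm lower limit. Irf9, the DNA-binding partner of STAT2, had 4947, 4465, 5207 and 11369, with ratios of -0.15 and 1.13. The other samples of Irf9 stood together and NOGGIN 2 above them. Irf1, a factor of the interferon-gamma response, had 8344, 7413, 9875 and 13267 and a ratio of 0.43 on array 2. Stat2 ran from 6427 in control 1 to 9633 in NOGGIN 2 and had a ratio of 0.39. Irf1 and Stat2 were the 2 of the 36 under 1.5-fold on array 2, and over the settings tried their array 2 ratios ran from 0.03 to 0.43 and from -0.04 to 0.48, so the sign of Stat2 is not settled.

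The antiviral effectors held the largest ratio of the 36. Ifit1, which binds the caps of viral RNA and blocks its translation, had 154 in control 1, 235 in NOGGIN 1, 223 in control 2 and 7712 in NOGGIN 2. Its probe (chromosome 19, 34723796 to 34723855, mm9) gave ratios of 0.61 on array 1 and 5.11 on array 2, which is 34.6-fold. NOGGIN 1 and control 2 were nearly level, and NOGGIN 2 stood far above both. Ifit1 had the second highest array 2 ratio of all genes tested. Ifit3, of the same family, had 288, 564, 2214 and 20110, with ratios of 0.97 and 3.18. Control 2 of Ifit3 was above both samples of array 1. Ifit2 had 842, 809, 668 and 1841, with ratios of -0.06 and 1.46 and the widest spread between spots of the 36, an SD of 0.43 on array 1 and 0.45 on array 2. The Ifit genes have near copies that share sequence, so their probes may read more than 1 of them.

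The genes of the OAS family make or resemble the enzyme that activates RNase L. Oas1a had 669 in control 1, 685 in NOGGIN 1, 905 in control 2 and 9285 in NOGGIN 2, with ratios of 0.03 and 3.36. Oasl2 had 512, 821, 993 and 12734, with ratios of 0.68 and 3.68. Oasl1 had 370, 418, 814 and 5101, with ratios of 0.18 and 2.65. In all 3 the levels stood in the same order, control 1 lowest, then NOGGIN 1, control 2 and NOGGIN 2, and the last step was the largest.

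Rsad2 (viperin), which makes a chain-terminating nucleotide, had 660, 1158, 1116 and 8690, with ratios of 0.81 and 2.96. It was 1 of the 6 genes at least 1.5-fold higher on both arrays, and NOGGIN 1 was at the level of control 2. Mx1, a GTPase active against influenza virus, had 84.5, 98.5, 119 and 1387, with an array 2 ratio of 3.54, and was not well above background in control 1. Mx2 had 157, 218, 198 and 1760, with ratios of 0.48 and 3.15. Bst2 (tetherin), which holds budding virus at the cell surface, had 1296, 1409, 2559 and 15414, with ratios of 0.12 and 2.59. Ifitm3, which blocks the entry of viruses by fusion, had 23494, 20762, 28088 and 60550, with ratios of -0.18 and 1.11. Over the 11 effectors the median ratio was 0.22 on array 1 and 3.15 on array 2.

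Isg15, a ubiquitin-like protein attached to other proteins, had 435 in control 1, 634 in NOGGIN 1, 5088 in control 2 and 21783 in NOGGIN 2. Its ratios were 0.55 and 2.10, but both samples of array 2 were far above both samples of array 1. A second probe of Isg15 had 145, 191, 538 and 5890, with ratios of 0.39 and 3.45. It gave the same order of samples with a smaller step between the controls. Usp18, the protease that removes ISG15 and dampens the type I receptor, had 188, 229, 408 and 3179, with ratios of 0.29 and 2.96.

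Of the 6 interferon-inducible GTPases, 5 lay within 1.5-fold on array 1 and Iigp1 was higher there, and all 6 were at least 1.5-fold higher on array 2. Ifi47 had 386 in control 1, 418 in NOGGIN 1, 458 in control 2 and 8959 in NOGGIN 2, with ratios of 0.12 and 4.29. Gbp3, a guanylate-binding protein, had 1469, 1293, 1663 and 24383, with ratios of -0.18 and 3.87. The other guanylate-binding protein, Gbp2, had 3222, 2852, 4520 and 18083, with ratios of -0.18 and 2.00. In these 3 genes the other samples were much closer to each other than to NOGGIN 2. Igtp had 1077, 1287, 1161 and 11539, with ratios of 0.26 and 3.31, and Irgm1 had 3705, 3009, 4152 and 11307, with ratios of -0.30 and 1.45.

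Iigp1, which destroys the vacuoles of intracellular parasites, had 5053 in control 1, 13115 in NOGGIN 1, 4607 in control 2 and 23288 in NOGGIN 2. Both NOGGIN samples were above both controls, by 2.60-fold on array 1 and 5.05-fold on array 2. Its second probe gave 3818, 11417, 3292 and 18896, with ratios of 1.58 and 2.52 against 1.38 and 2.34 for the first. Iigp1 had the highest array 1 ratio of the 36. Both NOGGIN samples were above both controls for 7 of the 36 genes, Ifit1, Rsad2, Mx2, Igtp, Iigp1, Ifi44 and Rtp4 (14.3% of all genes).

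The 3 genes of antigen processing had a median array 2 ratio of 1.77, below the 3.15 of the effectors and above the 1.48 of the sensors. Psmb8 and Psmb9, subunits of the immunoproteasome, had 198, 182, 408 and 1962 and 259, 235, 365 and 1243, with array 2 ratios of 2.27 and 1.77. Tap1, which carries peptides into the endoplasmic reticulum, had 354, 437, 556 and 1327, with ratios of 0.30 and 1.26. In all 3 NOGGIN 2 was highest and control 2 next.

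Of the remaining 7 genes, Rtp4 and Ifi202b stood at the ends of the array 1 range. Rtp4, a chaperone of membrane receptors, had 1002 in control 1, 2141 in NOGGIN 1, 1681 in control 2 and 14576 in NOGGIN 2, with ratios of 1.10 and 3.12. Ifi202b, a DNA-binding protein of the PYHIN family, had 998, 417, 1010 and 6859, with ratios of -1.26 and 2.76. It was the 1 member at least 1.5-fold lower on array 1, and its second probe gave -0.98 and 2.36. The controls of Ifi202b were level, NOGGIN 1 was below them and NOGGIN 2 above them. Genes of the PYHIN family have near copies, and the probes may read several.

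Ifi44 had 93.4 in control 1, 125 in NOGGIN 1, 97.6 in control 2 and 2011 in NOGGIN 2, with ratios of 0.42 and 4.37, the latter 20.6-fold. Control 1 was not well above background, and against the bound used for it the fold of NOGGIN 1 was 1.16. Over the settings tried the array 1 ratio of Ifi44 ran from 0.15 to 1.91 (log2), so 1.16 is no firm lower limit. Ifi203, also of the PYHIN family, had 263, 272, 309 and 3305, with ratios of 0.05 and 3.42. Xaf1, which counters an inhibitor of cell death, had 562, 724, 732 and 6493, with ratios of 0.37 and 3.15. Parp14, an ADP-ribosyltransferase, had 688, 729, 983 and 7715, with ratios of 0.08 and 2.97, and Ifi35 had 312, 337, 483 and 2292, with ratios of 0.11 and 2.25. These 4 lay within 1.5-fold on array 1.

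Other probes of the same genes mostly gave the same picture. Of the 44 kept probes, 41 were at least 1.5-fold higher on array 2. Several kept probes were present for 8 genes, and 0 of these had probes past 1.5-fold in opposite directions. The largest exception in size was Mx2, whose second kept probe had 81.1, 81.8, 83.3 and 99.1 and ratios of 0.01 and 0.25. Kept probes also differed in size on array 2 for Isg15, for Zbp1 (1.41 and 2.55) and for Oas1a (3.36 and 2.24). The 6 probes that did not pass the filter had array 2 ratios from -0.01 (Irf1) to 2.33 (Ifi203). The 5 genes not well above background in control 1 were Dhx58, Zbp1, Irf7, Mx1 and Ifi44, and the other 31 were well above background in all 4 channels.

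The dye swap allowed a comparison within each dye, in which a fixed dye difference of a gene cancels. In the red dye NOGGIN 2 was at least 1.5-fold above control 1 for 35 of 36 genes (4.11% of all genes) and below it by that much for 0 (2.74%), with a median difference of 3.49 (log2). In the green dye NOGGIN 1 was at least 1.5-fold above control 2 for 1 gene, Iigp1 (2.84% of all genes), and at least 1.5-fold below it for 10 (3.31%), with a median of -0.35. All genes had medians of -0.02 and -0.01. The BMP targets were high in both, with medians of 1.45 and 1.46. The largest red differences were those of Ifit3 (6.13), Isg15 (5.65) and Ifit1 (5.64). In the green dye Ifit3 and Isg15 had the lowest values of the 36, -1.97 and -3.00, and Ifit1 had 0.08.

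The controls were not level either. Control 2 was above control 1 for 34 of the 36 genes, with a median difference of 0.41 where all genes had 0.04. Control 2 was above NOGGIN 1 for 28 genes, and neither count was taken over all genes. Control 2 was green and control 1 red, so a dye difference of a gene and a difference between the sample pairs cannot be told apart there. Control 2 and NOGGIN 1 were both green, but they differ in label and in array, which cannot be told apart either. NOGGIN 2 exceeded NOGGIN 1 by a median of 3.22, where all genes had -0.04, and this again sets a red against a green channel.

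**Figure D3:**
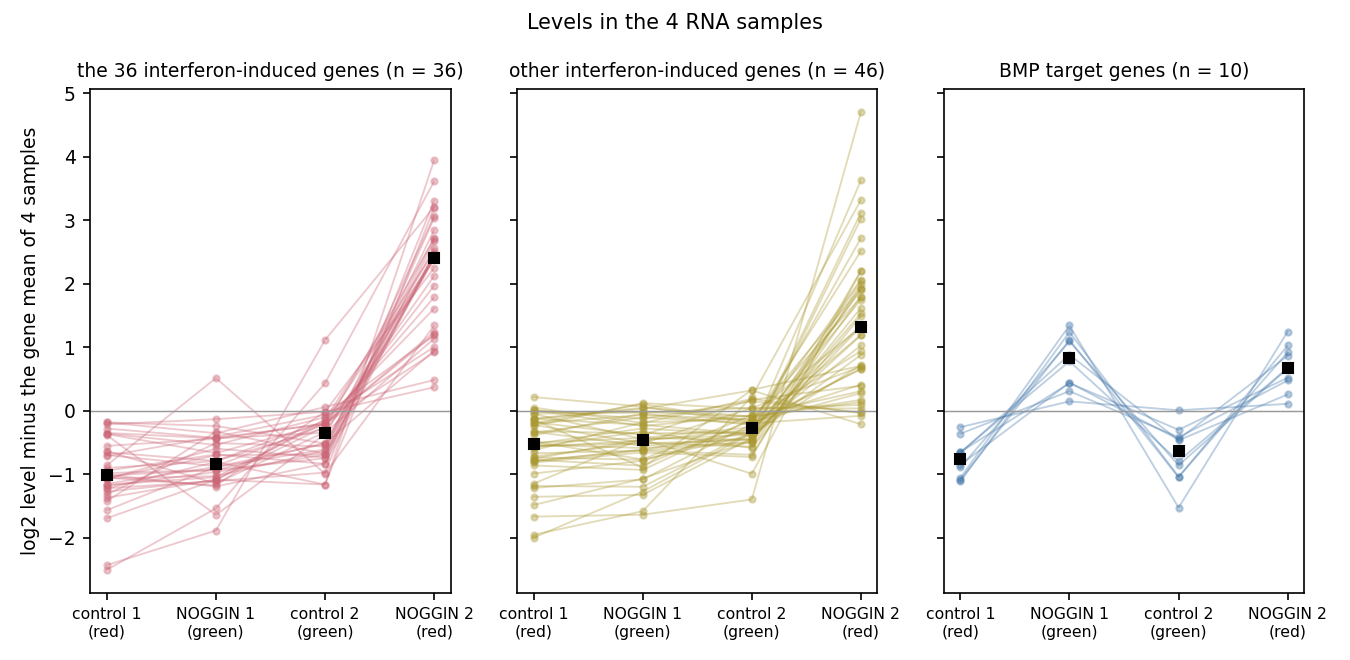
Log2 level of each gene minus its mean over the 4 RNA samples (vertical) in each sample (horizontal, dye in brackets) for the 36 genes, 46 other interferon-induced genes and 10 BMP target genes. Lines are genes and black squares are medians. The first 2 panels are highest at NOGGIN 2. The BMP targets are high in both samples labelled NOGGIN, opposite to the known action of a BMP antagonist.

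**Figure D4:**
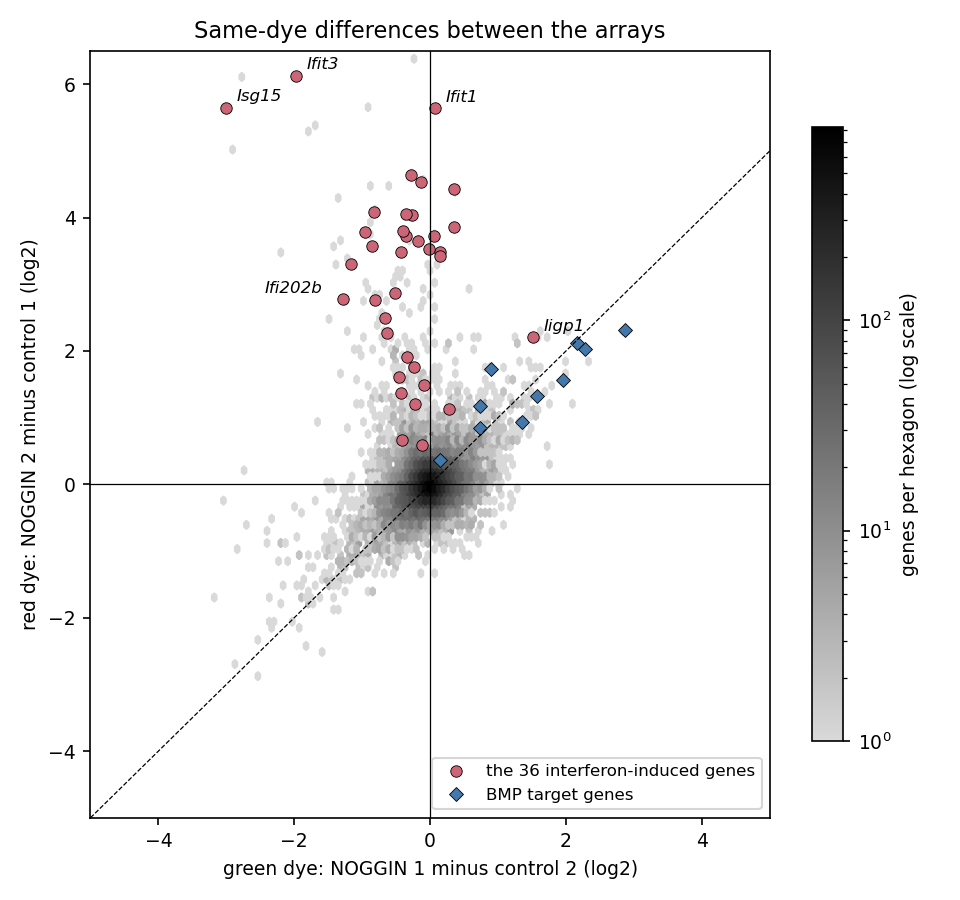
Difference of NOGGIN 1 minus control 2 in the green dye (horizontal) against NOGGIN 2 minus control 1 in the red dye (vertical), log2, for all genes (grey hexagons), the 36 genes (circles) and the BMP targets (diamonds). The dashed line marks equal differences. The circles have medians of -0.35 and 3.49 and the diamonds 1.46 and 1.45.

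The other parts of the interferon pathway were read from gene lists written with earlier results of these arrays known. No gene of these lists passed the adjusted p of limma, and counts at an unadjusted p under 0.05 follow. The ligands were hardly measured. Of 10 ligand genes on the array 5 passed the filter, with array 2 ratios from -0.14 to 0.19, and 0 reached 1.5-fold or an unadjusted p under 0.05. Ifnb1, the gene of IFN-beta, did not pass the filter: 0 of 4 spots were well above background in control 1, NOGGIN 1 and control 2, and 4 of 4 were in NOGGIN 2. Its levels were 68.6, 69.9, 67.7 and 115. Ifng, the gene of interferon-gamma, had 0 spots well above background in all 4 samples.

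The receptor genes stayed near 0, with 0 of 6 past 1.5-fold on either array and 0 at an unadjusted p under 0.05. Ifnar1 had 8767 in control 1, 9392 in NOGGIN 1, 9739 in control 2 and 8948 in NOGGIN 2. Ifngr1 had ratios of 0.28 and -0.31. Of 12 transducers and inhibitors of the JAK-STAT pathway 0 were 1.5-fold higher on array 2 and 1 was lower, the kinase gene Jak1 (0.20 and -0.61). On array 1, 1 was higher, Irf5 (0.96 and 0.44), and 0 were lower. At an unadjusted p under 0.05, 1 was higher and 1 lower.

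Of 15 genes that sense nucleic acid or carry the signal on, 4 were 1.5-fold higher on array 2 and 1 was lower, with 1 higher at an unadjusted p under 0.05. Tlr3, a receptor for double-stranded RNA, had ratios of -0.02 and 1.11, and Eif2ak2 (PKR) -0.26 and 0.87. Ticam1, the adaptor of Tlr3, had 0.22 and -0.89. The median of the list was -0.01 on array 1 and 0.30 on array 2.

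Interferon-induced genes outside the 36 showed the same contrast between the arrays, and they were listed with results in view, so they are no independent support. Of 46 measured, 33 were at least 1.5-fold higher on array 2 and 2 on both arrays, and 13 were higher at an unadjusted p under 0.05. Their medians were 0.06 and 1.61, with 1.76 in the red and -0.12 in the green comparison. Cxcl10, a chemokine for activated T cells, had 635 in control 1, 648 in NOGGIN 1, 766 in control 2 and 52881 in NOGGIN 2, a ratio of 6.11 on array 2 and 0.03 on array 1. Cxcl9 had 0.03 and 3.55, Ifit3b 0.73 and 3.98, Phf11d 0.42 and 3.49, and Ifi204 -0.01 and 3.05. Of the 46, 13 were under 1.5-fold on array 2, among them Ifitm2 (-0.23), Sp100 (-0.01) and Gbp5 (0.12).

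In the list of MHC class I presentation 6 of 11 genes were 1.5-fold higher on array 2, with medians of 0.08 and 0.91 and 0 at an unadjusted p under 0.05. Nlrc5, the transactivator of these genes, had 116, 108, 116 and 894, with ratios of -0.10 and 2.94. The class I genes H2-K1 (-0.20 and 1.51) and H2-D1 (-0.03 and 1.38) followed, as did Tap2 (0.11 and 1.46).

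Most measured genes of the NF-kB response were highest in the same sample as the 36. Of 10 measured, 8 were 1.5-fold higher on array 2 and 0 on array 1, with medians of -0.09 and 1.41 and 1 higher at an unadjusted p under 0.05. Ccl2, a monocyte chemokine, had 3812 in control 1, 2578 in NOGGIN 1, 6772 in control 2 and 38230 in NOGGIN 2. Its ratios were -0.56 and 2.50. Cxcl1 had -0.11 and 2.78, Il6 -0.53 and 1.61, Tnf -0.14 and 1.75, and Tnfaip3, an inhibitor of the response, 0.12 and 1.72. Il1b and Cxcl2 did not pass the filter, and their NOGGIN 2 levels were 1188 and 769 against at most 89.8 and 95.2 in the other samples.

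**Figure D5:**
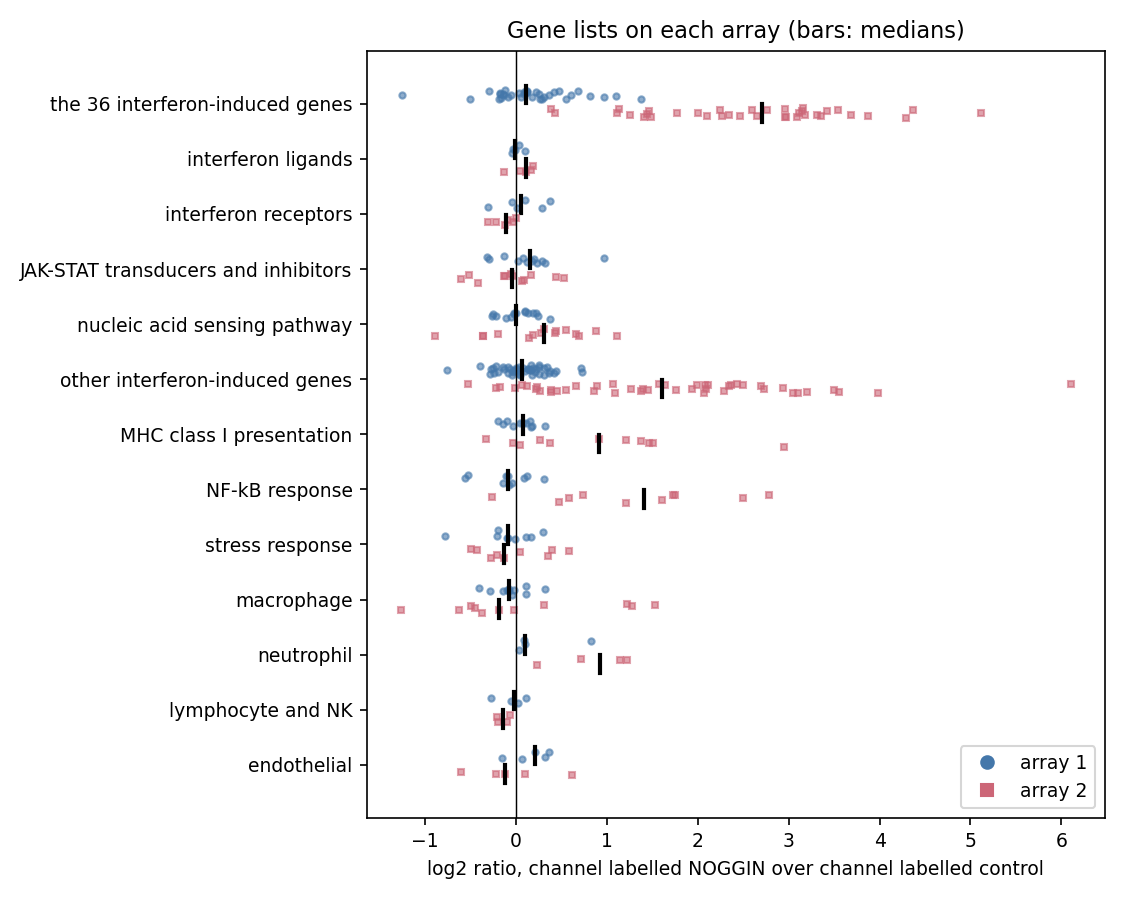
Log2 ratio, NOGGIN over control by the dye labels, of the genes of 13 lists (rows), array 1 as blue circles and array 2 as red squares, with a black bar at each median. The lists of interferon-induced genes, the NF-kB response and MHC class I presentation lie to the right on array 2. Their medians are 2.71, 1.61, 1.41 and 0.91. The neutrophil list, with 4 genes, also lies to the right (0.93), and the receptors lie near 0.

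Marker genes of immune cells were read beside these results, since in bulk RNA more cells of a type and more RNA per cell cannot be told apart. Of 11 macrophage markers 3 were 1.5-fold higher and 2 lower on array 2, and their summed level was 17240 in control 1, 16610 in NOGGIN 1, 23386 in control 2 and 27256 in NOGGIN 2. Adgre1 (F4/80) had ratios of 0.11 and 1.27, Lyz2 -0.05 and 1.23 and Cd14 0.32 and 1.53. Cx3cr1 had 0.11 and -1.27, and Csf1r -0.02 and -0.45. The markers thus went both ways.

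Of 4 neutrophil markers 3 were 1.5-fold higher on array 2, and their summed level was 667, 942, 860 and 1574. Ly6g had 334, 591, 345 and 759, with ratios of 0.82 and 1.14, so it was higher on array 1 as well. Camp had 115, 123, 115 and 268, and S100a9 had ratios of 0.09 and 0.23. Camp and S100a8 were not well above background in control 1, and Ngp had 0 spots well above background. Of 8 lymphocyte and NK markers 4 were measured, with 0 past 1.5-fold and summed levels of 1014, 916, 953 and 866. Cd8a, Ncr1 and Klrb1c had 0 spots well above background in all samples. Of 3 markers of plasmacytoid dendritic cells 1, Pacsin1, was 1.5-fold higher on array 2 (-0.30 and 0.59; -0.21 on array 2 over all its kept probes), Ccr9 had levels from 78.9 to 84.9, and Siglech was bright in all 4 samples (57364 to 64306). Of 5 endothelial markers 1 was 1.5-fold higher on array 2, Pecam1 (0.07 and 0.61), and 1 lower, Tie1 (0.20 and -0.61), with medians of 0.20 and -0.12. The part of these cells in the result was not tested.

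The genes outside all lists with the largest excess of the array 2 over the array 1 ratio were read as the most like in pattern, over 2 arrays. They were Ccl7 (-1.21 and 2.54), Acod1 (0.03 and 3.65), the unnamed probe A_55_P2140745 (-0.10 and 3.49), Mmp13 (-0.01 and 3.48), Saa3 (0.04 and 3.26), Steap4 (-0.21 and 2.91), Ccl5 (-0.10 and 3.02), Serpina3g (-1.05 and 2.01), an unnamed Ensembl transcript (0.13 and 3.15) and Cxcl3 (-0.44 and 2.51). Saa3, an acute-phase protein, had 110, 113, 769 and 7386, so that control 2 was again above both samples of array 1. Among the 100 genes with the largest excess 24 were of the 36, which is 66.7% of them, and 19 were other listed interferon-induced genes. A further 53 were neither of the 36 nor in any list. Of the 20 with the largest excess 8 were of the 36, 5 were other listed interferon-induced genes and 7 were in neither. The 36 were chosen with this difference in view, so their place in the ranking was fixed in part by the choice.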

How the data were processed

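RNA of 2 control and 2 NOGGIN-treated ureter samples was read on 2 two-colour arrays with exchanged dyes. The deposited scanner files hold spot intensity values, per the file headers. The submitters' processing notes name Agilent Feature Extraction, version 10.7.3.1. The files also have a deposited log10 ratio of red over green and flags. The authors' deposited table holds a signed score per probe, a linear fold change with medians of 1 and no value between -1 and 1. Its normalization by the authors is not stated in the labels or headers.

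Mean signals were background-corrected by normexp (offset 50) and loess-normalized within each array (limma 3.58.1, R 4.3.3), without control and outlier spots, and the 4 spots per probe were averaged. The filter kept 29638 probes, those whose spots were mostly well above background in red or in green on each array, and the brightest probe of a gene was used. Names were updated through RefSeq accessions (71.8% of probes matched). The files give probe positions in mm9, whose exon annotation was not used here. Levels are intensities after Aquantile scaling between arrays. A fold against a sample not well above background used the higher of its own level and the lowest detected level of that channel as its bound. The gene test was limma's lmFit and eBayes with Benjamini-Hochberg adjustment over 22311 genes, tested on simulated data. Figures were drawn with matplotlib 3.10.9.

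All 36 genes are named, with up to 5 genes of each other list by the difference between arrays and the 10 most like genes outside them; any other gene was picked with its values in view. Some genes of the lists are not reported here. The 36 genes and all lists were chosen with earlier results of these data known.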

Additional observations from a re-analysis of the deposited data

How the results depend on the processing

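The main pattern kept its direction in the settings tried: 34 of 36 genes were at least 1.5-fold higher on array 2 in each, except 29 of the 31 left by a filter that needs both channels above background. The count of genes past the adjusted p, 0 as reported, was 22 with outlier spots kept, 35 when the background was not corrected, 100 with both channels above background, 114 under median centring, 141 with the trend and robust options of eBayes, and 43 at a threshold of 0.1. The 6 genes higher on array 1, and the same 6 on both arrays, became 11 on processed signals and 2 at 2-fold. With 1 array left out, this count is that of the other array alone, 6 or 34, and says nothing of stability. The median ratio on array 1, 0.11, became 0.33 with median centring. The median on array 2, 2.71, became 2.26 with median centring and 2.44 with scaling between arrays. The median of NOGGIN 2 minus the highest other sample took the same values, 2.26 and 2.44. The median red-dye difference, 3.49, became 3.70 with levels not scaled, a setting added after the data were seen in which all genes moved to 0.19. Pacsin1 on array 2 turned to -0.21 with the mean of all kept probes. Of 355 values of single genes on array 1, 52 moved by more than the spot SD and 15 turned sign; on array 2, 96 of 355 moved, and 1 turned sign. The causes were not tested.

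A single array gives no limma test, so that count has no value without an array. The limma fit is itself paired, since each ratio is taken within the array that holds both samples. Signal over background limits Dhx58, Zbp1, Irf7, Mx1 and Ifi44 on array 1.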

Other observations

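Genes of the heat-shock and stress response did not share the contrast between arrays: 1 of 9, Hspb1, was 1.5-fold higher on array 2 (-0.01 and 0.59), and the medians were -0.09 and -0.13. Hspa1a had -0.20 and 0.35, and Fos -0.10 and -0.43. Sex-linked genes were read as a check of the mix of embryos in each sample. Xist had 11229 in control 1, 10697 in NOGGIN 1, 9087 in control 2 and 6327 in NOGGIN 2. Its ratios were -0.07 and -0.52. Of the 4 Y-linked genes, Kdm5d had -0.14 and 0.60 and was the sex-linked gene at least 1.5-fold higher on array 2, from a dim probe (117, 106, 85.2 and 129). Uty had -0.10 and 0.14, Ddx3y 0.03 and -0.11, and Eif2s3y -0.14 and -0.02.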
